A study of Brassica napus with 45 samples.

Results

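A stretch of chromosome A04 of Brassica napus (rapeseed), from BnaA04G0037800ZS to BnaA04G0119900ZS, was followed through 45 leaf libraries. It was chosen by its change between wild type and both lines that overexpress the transcription factor BnNAC038, so line against wild type values below describe the choice and are given with no test. The stretch held 822 of the 100919 genes listed in the overexpression experiment and 623 of the 78057 listed in the knockout experiment. The running number is the count along the chromosome that each identifier carries, and it is an order, not a base coordinate.

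The series asked how BnNAC038 weighs the response to drought against growth. In the knockout experiment, wild type (K407 in the column names) and the knockout line BnNAC038-KO-1 gave 18 libraries, and in the overexpression experiment a wild type of its own (WT in the column names) and the lines BnNAC038-OE-1 (line 1) and BnNAC038-OE-2 (line 2) gave 27. Each genotype was sampled untreated, after 50 µM abscisic acid (ABA) for 3 h and after 20% polyethylene glycol (PEG) for 6 h, with 3 libraries per group. The knockout is represented by 1 line, the promoter driving the overexpression was not stated in the labels, and the titles speak of biological replicates but not of separate plants or pools, so a p-value reflects the spread among libraries that may share plants. For line 2 a label field names differently numbered NAC genes from library to library, while its titles name BnNAC038, and the titles were followed. The leaf identity was not checked against markers, because 0 identifiers were found among 123214 reference genes (Da-Ae assembly) and no gene names could be given.

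Brassica napus is an allotetraploid that carries an A subgenome, derived from Brassica rapa, and a C subgenome, derived from Brassica oleracea. Chromosomes A04 and C04 are homoeologues that hold many pairs of closely similar gene copies, and reads shared by such copies may be divided between them when expression is counted. NAC proteins are plant transcription factors, many of which act in stress and senescence. ABA is the hormone that accumulates when plants lack water and closes stomata, and PEG lowers the water potential around the roots and so mimics drought.

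Gene levels were deposited as TPM (transcript abundance scaled for length and library) in the overexpression experiment and as another normalized value, not stated to be TPM or FPKM, in the knockout experiment, so levels were never compared between the experiments. A gene was tested if its value reached 1 in at least 3 libraries of its experiment, and it was called at a limma adjusted p under 0.05. In the overexpression experiment 397 of the 822 members were tested (48.3%, against 47.0% of all genes), and in the knockout experiment 350 of the 623 (56.2%, against 55.0%). A further 165 members were listed at 0 in every library of the overexpression experiment. In leaf RNA, fewer cells of a type and less RNA per cell cannot be told apart.

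A pair of libraries stood apart from their group and touch each value that uses ABA-treated wild type of the overexpression experiment. Of the 51 members called and at least 2-fold lower, and the 26 higher, in both lines in untreated and PEG-treated leaves, those with at least 5 TPM in ABA-treated wild type replicate 1 or in the mean of the ABA-treated lines were placed on a scale from 0, the level of ABA-treated wild type replicate 1, to 1, the mean of the ABA-treated lines. Over the 33 lower members kept the median place was 0.557 for wild type replicate 2 and 0.331 for replicate 3, and over the 19 higher members kept it was 0.548 and 0.312. Genes outside A04 stood at similar places, 0.588 and 0.234 over 120 lower genes and 0.451 and 0.315 over 142 higher ones. ABA-treated wild type replicates 2 and 3 thus lay between their own group's first replicate and the lines, in the stretch as elsewhere.

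The stretch was divided into a lowered part, which ends at number 733, and a raised part, which starts at number 734. The raised part was not raised throughout. At numbers 1000 to 1049, 3 members were called higher and 8 lower in untreated line 1, and 4 and 7 in untreated line 2. The boundary was set where 2 contiguous parts left the least squared deviation of the mean log2 change over both lines and 3 conditions, and it fell between the tested members 730 and 734. The mean log2 change was -0.57 over the 186 tested members before it and 0.18 over the 211 after it. The median change depended on the filter, as in untreated line 1 it went from -0.41 to -0.14 before the boundary and from 0.11 to 0 after it when all members entered, and in line 2 from -0.37 to -0.14 and from 0.18 to 0.004. Each line and condition on its own placed the boundary at the same point, except line 2 with ABA, which placed it at 735. A single line library set against the wild type mean placed it at 734 or 735 in each of 18 cases. These placements share wild type libraries and use the values that chose the stretch, so they describe it and are not separate support. The longest run without a tested member lay in the raised part, between numbers 811 and 841.

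**Figure D1:**
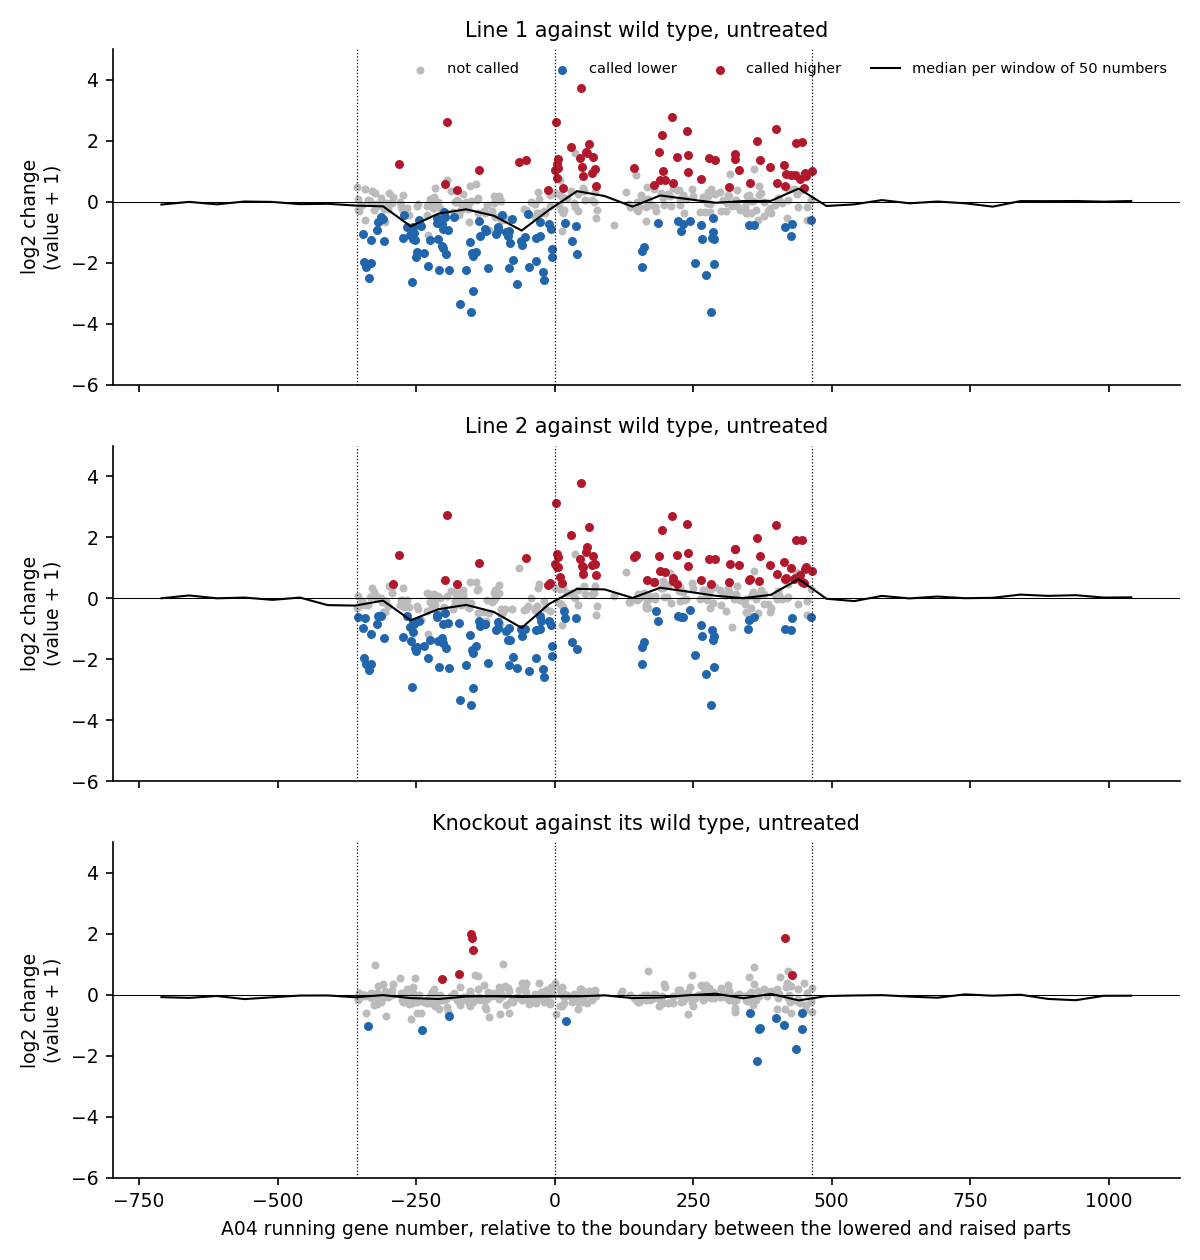
Log2 change of each tested member in untreated leaves (y axis, log2 of value + 1) against its running number relative to the boundary (x axis), for line 1, line 2 and the knockout, each against its own wild type. Blue and red points were called lower and higher, the black line is the median of all tested genes of A04 in windows of 50 numbers, and the dotted lines mark the start, the boundary and the end of the stretch. The windows fall to -0.95 and -0.97 in the lines and stay between -0.18 and 0.04 in the knockout.

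Genes were called in both directions on both sides of the boundary, but unequally. In untreated leaves line 1 had 109 members called lower and 65 higher, against 2.28% and 2.31% of all tested genes. Of these, 81 lower and 8 higher calls lay in the lowered part, and 28 lower and 57 higher in the raised part. Line 2 had 107 lower and 78 higher, against 2.7% and 5.35%, with 77 lower and 9 higher in the lowered part and 30 and 69 in the raised part. With PEG, line 1 had 126 lower and 77 higher (6.91% and 6.53% of all genes) and line 2 had 119 and 78 (5.22% and 5.41%). With ABA, where the wild type group holds the 2 intermediate libraries, line 1 had 83 lower and 34 higher (1.35% and 1.02%) and line 2 had 75 and 45 (1.26% and 1.59%). Without both of these libraries 125 members were called in line 1 and 123 in line 2, in place of 117 and 120, but this leaves 1 wild type library, which is assumed to vary like the other groups. With only the compared groups in the fit the counts were 29 and 33.

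Over all 6 comparisons of a line with wild type, 55 of the 186 tested members of the lowered part were called lower each time and 3 higher each time, while 62 were called in none. In the raised part 27 of 211 were called higher each time, 12 lower each time and 80 in none. Across the genome 0.708% of tested genes were called lower in all 6 and 0.493% higher in all 6, which is 336 and 234 genes, and the stretch held 67 and 30 of them (19.9% and 12.8%) with 0.836% of the genes tested. Since these contrasts chose the stretch, the counts describe it and carry no test.

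**Figure D2:**
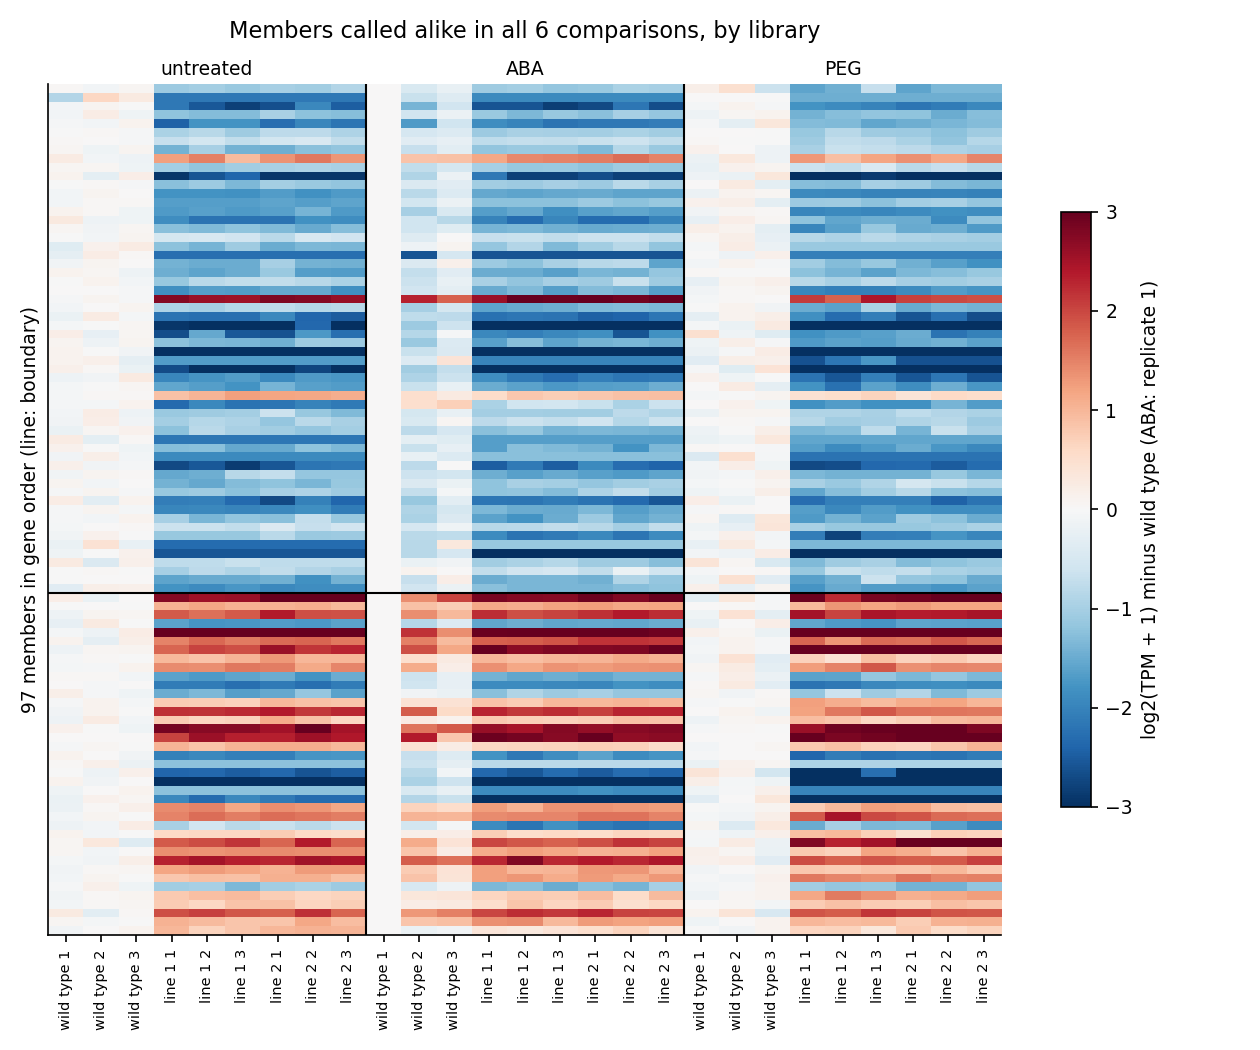
The 97 members called alike in all 6 comparisons (rows, in gene order, with a line at the boundary) in the 27 libraries of the overexpression experiment (columns). Colour is log2(TPM + 1) minus the wild type mean of the same condition, or minus replicate 1 for ABA. The 6 line libraries of a condition share their colours within a row, which the choice of rows largely fixes. Members of either direction lie among each other on both sides of the boundary, and ABA-treated wild type replicates 2 and 3 are paler versions of the lines.

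The edges of the stretch were of different kinds. Before its start, 1 of 183 tested genes of A04 was called lower in all 6 comparisons (number 233) and none higher, and the median size of the log2 change was 0.11, against 0.41 in the lowered and 0.36 in the raised part. Just inside this edge, BnaA04G0038000ZS had 9.87, 13.2 and 13.0 TPM in untreated wild type and 11.5 to 13.7 TPM in the untreated lines, which overlapped. The first member called lower in all 6 was number 389. Beyond its end, the next 100 numbers held 58 tested genes, of which 5, between 1201 and 1253, were lower in all 6, so changes of this kind ran past the upper limit of the rule. The nearest gene outside with 5 TPM or more in wild type, BnaA04G0120300ZS, had a mean log2 change of -1.02, and the nearest inside, BnaA04G0118100ZS, had 19.3, 12.6 and 16.1 TPM in untreated wild type and 55.7 to 76.0 TPM in the untreated lines. Farther along A04, 1 of 852 tested genes was lower and 2 were higher in all 6, with a median size of change of 0.10.

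The named members on either side of the boundary changed in opposite directions, which the way it was placed favours. Calls around it were mixed. Numbers 700 to 749 held 7 members called higher and 10 lower in untreated line 1, and 10 and 11 in untreated line 2. BnaA04G0072900ZS, the last member of the lowered part with at least 5 TPM in wild type, had 65.0, 65.7 and 65.4 TPM in untreated wild type, 21.1, 22.3 and 22.1 TPM in line 1 and 23.5, 17.9 and 24.0 TPM in line 2. BnaA04G0073500ZS, the first such member of the raised part, had 4.58, 4.84 and 6.22, then 13.7, 10.8 and 10.6 and 12.1, 10.6 and 14.8 TPM in the same groups. The lines lay below every wild type library for the first gene and above for the second. Chromosome C04, the homoeologue, had no window as strongly changed as the extremes of the A04 stretch. Its windows of 50 numbers with at least 10 tested genes had medians between -0.34 and 0.22 in the 6 comparisons. Those of the A04 stretch ran from -0.97 to 0.63, but some of them lay within the C04 range. In untreated line 1 these included -0.15 at numbers 400 to 449 and 0.20 at 900 to 949. The matching stretch of C04 was not located, so smaller changes there could not be seen.

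The change per gene was graded rather than uniform. Among the 95 tested members of the lowered part with at least 5 TPM in wild type or line 1, untreated, the median ratio of line 1 to wild type was 0.632 (quartiles 0.383 and 0.951). Of these, 4 were at or below a ratio of 0.1, 31 lay between 0.1 and 0.5, 56 between 0.5 and 2, and 4 at 2 or above. In the raised part the median over 89 such members was 1.18 (quartiles 0.862 and 2.51), with 8 at or below 0.5, 52 between 0.5 and 2, and 29 at 2 or above. Line 2 had a median of 0.682 in the lowered part in untreated leaves, and medians of 0.696 and 1.20 with PEG, where line 1 had 0.667 and 1.20.

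Summed over the members of a part, without the 5 most abundant of each, untreated wild type had 2333, 2222 and 2328 TPM in the lowered part, line 1 had 1493, 1539 and 1443 TPM and line 2 had 1445, 1505 and 1469 TPM. In the raised part the sums were 2545, 2514 and 2505 TPM in wild type, 3354, 3359 and 3463 TPM in line 1 and 3651, 3450 and 3417 TPM in line 2. Each line library lay outside the wild type range in both parts. Ratios of the line to the wild type mean were 0.650 ± 0.0209 and 0.642 ± 0.0131 in the lowered part and 1.35 ± 0.0242 and 1.39 ± 0.0501 in the raised part (SD, n = 3). With PEG they were 0.585 ± 0.0265 and 0.607 ± 0.0189, then 1.47 ± 0.0466 and 1.60 ± 0.0191. ABA-treated wild type replicates 1, 2 and 3 had 2524, 1903 and 2281 TPM in the lowered part, where the ABA-treated lines had 1523 to 1558 TPM, and 2716, 3344 and 2812 TPM in the raised part, where the lines had 3670 to 4000 TPM. The raised-to-lowered ratio of these sums was 1.02 to 1.76 over the 9 wild type libraries and 2.18 to 2.95 over the 18 line libraries. With all members it was 2.02 to 7.26 in wild type, 5.15 to 11.8 in line 1 and 6.19 to 12.1 in line 2, which overlapped. In the knockout experiment, without the 5 most abundant, it was 1.52 to 2.52 over the 9 wild type and 1.48 to 2.28 over the 9 knockout libraries. With all members these ranges were 4.74 to 9.52 and 4.90 to 10.7. Untreated, without the 5 most abundant, it was 2.37, 2.23 and 2.52 in this wild type and 2.28, 2.28 and 2.21 in the knockout. In the untreated overexpression experiment it was 1.09, 1.13 and 1.08 in wild type and 2.18 to 2.53 in the lines. Taken as numbers, the untreated lines lay nearer the other wild type than their own, but the ratios are not like for like. Units differ between the experiments, the sums cover 822 and 623 listed members, and the 5 left out were chosen in each experiment on its own. Which genotype departs was not tested.

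**Figure D3:**
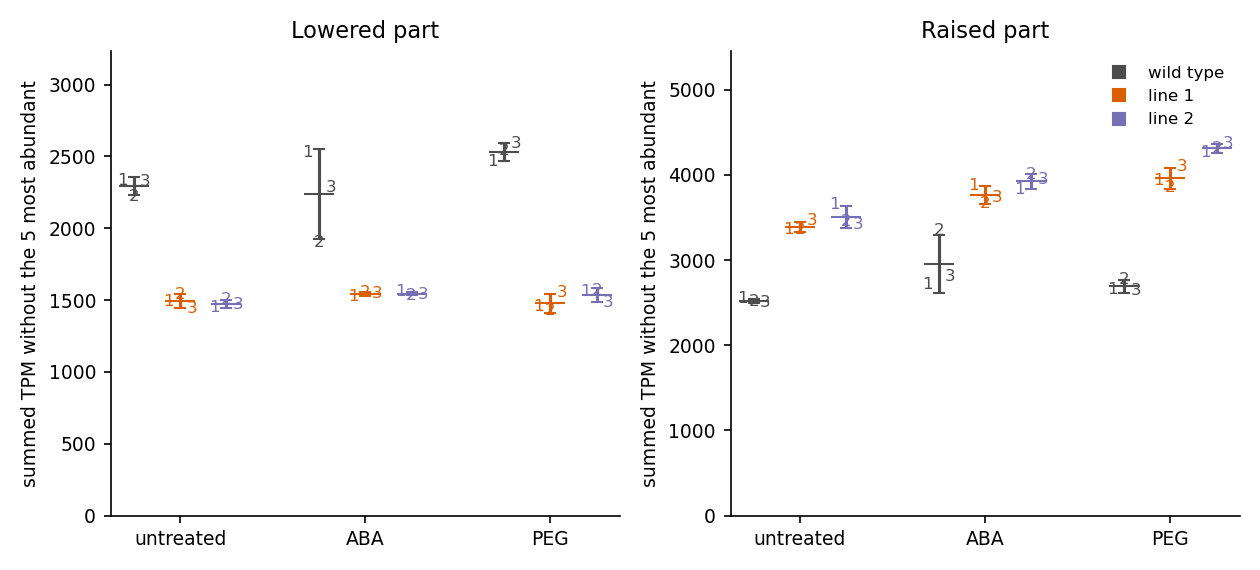
Summed TPM of the lowered part (left) and the raised part (right) without the 5 most abundant members of each, by condition, in wild type, line 1 and line 2. Digits are the libraries by replicate number, and bars give the mean and SD of 3 libraries. Line libraries lie below wild type in the lowered part and above it in the raised part, and ABA-treated wild type replicate 2 lies nearest to the lines.

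With all members the raised part was dominated by a few abundant genes. BnaA04G0100900ZS and BnaA04G0101200ZS were the most abundant in untreated wild type. BnaA04G0101200ZS had 5067, 4532 and 5503 TPM in untreated wild type, 13392, 14005 and 13000 TPM in line 1 and 12758, 10726 and 13810 TPM in line 2, so every line library was above every wild type library. BnaA04G0100900ZS had 5436, 4972 and 5832, then 5598, 5079 and 5231 and 5210, 4541 and 5788 TPM, with the genotypes overlapping. BnaA04G0100700ZS, a few numbers before, went the other way, with 2318, 2099 and 2598 TPM in wild type and 384 to 456 TPM in the untreated lines. In the lowered part the most abundant members were BnaA04G0041500ZS, with 264, 260.4 and 251 TPM in untreated wild type and 154 to 184 TPM in the lines, and BnaA04G0038900ZS, with 218, 202 and 222 and 98.3 to 115 TPM. Both were lower in each untreated line library than in any wild type library.

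The members named for the largest falls had low values in the lines. BnaA04G0056400ZS had 32.0, 33.0 and 34.3 TPM in untreated wild type, 3.50, 1.62 and 2.23 TPM in line 1 and 1.80, 5.68 and 1.04 TPM in line 2, and its mean log2 change over the 6 comparisons was -5.14. BnaA04G0058400ZS had 12.3, 11.3 and 10.4 TPM in untreated wild type, was listed at 0 in the 3 untreated line 1 libraries and had at most 0.547 TPM in any line library. In the raised part BnaA04G0101600ZS fell, with 61.8, 53.9 and 57.9 TPM in untreated wild type and 2.71 to 4.86 TPM over all line libraries (mean log2 change -3.66). For these 3 genes the lines stayed below every wild type library in each condition, ABA-treated replicates 2 and 3 included.

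The largest rises were found at numbers 781 and 796 of the raised part. BnaA04G0078100ZS had 3.02, 2.78 and 3.89 TPM in untreated wild type, 53.9, 58.2 and 54.1 TPM in line 1 and 51.6, 57.0 and 60.6 TPM in line 2 (mean log2 change over the 6 comparisons 2.89). In ABA-treated wild type its 3 libraries had 4.38, 23.2 and 13.1 TPM, so replicates 2 and 3 again lay between replicate 1 and the lines, which had 39.8 to 47.2 TPM. BnaA04G0079600ZS had 3.61, 4.30 and 4.38 TPM in untreated wild type and 16.1 to 29.5 TPM in the untreated lines (mean log2 change 2.52). Rises within the lowered part that met the naming rule (a mean of at least 5 TPM in the higher group of every condition, no overlap in untreated leaves) were BnaA04G0058100ZS at 7.33, 7.84 and 9.25 TPM in untreated wild type and 9.42 to 16.1 TPM in the lines, and BnaA04G0072200ZS at 32.5, 34.0 and 29.5 and 38.1 to 48.6 TPM. Outside this rule ratios could be larger, as for number 540, which had 0.0226 to 0.258 TPM in untreated and PEG-treated wild type and 2.61 to 7.28 TPM in the lines.

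**Figure D4:**
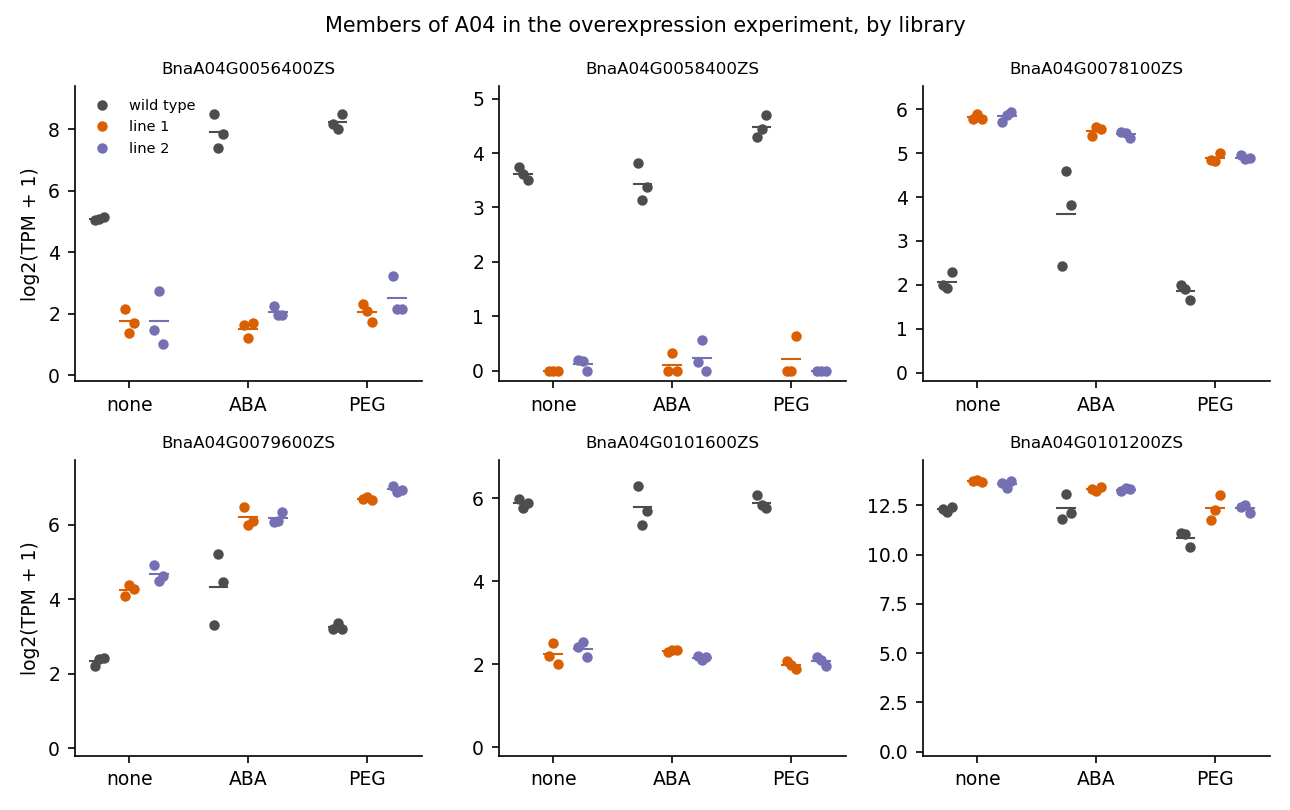
Log2(TPM + 1) of 6 members (panels) in each library of wild type, line 1 and line 2, untreated (none), with ABA and with PEG. Points are libraries and short lines their means. The lines sit below wild type for 3 members and above it for 3, and no line library overlaps with a wild type library of the same condition.

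Some members were listed in one genotype and close to 0 in the other. Counting members under 0.5 TPM in all untreated and PEG-treated libraries of one side and at 2 TPM or more in all those of the other, 6 were near 0 in the lines, 5 of them in the lowered part, and 2 were near 0 in wild type, 1 in each part. The share of all genes that meets this rule is not given here. These values also chose the stretch, so the counts describe it and do not set it apart. BnaA04G0071400ZS had 4.45 to 21.6 TPM in wild type and was listed at 0 in the lines, and BnaA04G0097300ZS was listed at 0 in wild type and had 3.09 to 12.4 TPM in the lines. Of the 6 members near 0 in the lines, all were listed in the knockout experiment, where 1 had a value of at least 1 in every untreated and PEG-treated wild type library.

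The lines were also set against each other. Because the stretch was chosen for a change in both lines, some likeness is built in, but the direct comparison was not used in the choice. Between line 1 and line 2 limma called 0 of 397 members untreated, with ABA and with PEG, against 0.0484%, 0.126% and 0.173% of all genes. These shares are so low that 0 calls does not set the stretch apart. At an unadjusted p under 0.05 there were 34, 10 and 26 members, against 224, 119 and 311 of the 2715 tested genes of C04, and those with a difference of 2-fold or more numbered 0, 0 and 1. With no filter on low values 2 members were called with PEG. The median difference of line 1 from line 2 was -0.05, -0.05 and -0.01 on the log2 scale.

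In the knockout the sums of both parts stood close to those of its own wild type. Without the 5 most abundant members the lowered part summed to 1411, 1495 and 1443 in untreated wild type and 1378, 1410 and 1393 in the knockout, and the ratio to the wild type mean was 0.961 ± 0.0109 untreated, 1.07 ± 0.102 with ABA and 0.969 ± 0.0952 with PEG (SD, n = 3). In the raised part it was 0.914 ± 0.0199, 0.980 ± 0.0181 and 1.02 ± 0.0586. Windows of 50 numbers had medians between -0.18 and 0.14 over the 3 conditions. The raised part was lower in each untreated knockout library, at 3141, 3214 and 3077, than in any wild type library, at 3348, 3335 and 3638, without its 5 most abundant members, but with them included the groups overlapped.

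The stretch was chosen on the lines, though with earlier results of these data known, and single members did differ in the knockout. In untreated leaves 13 of 350 tested members were called lower and 7 higher (3.71% and 2.00%), against 1.49% and 0.96% of all genes. With ABA 2 were lower and 6 higher, against 0.683% and 1.26%, and with PEG 2 were lower and 4 higher, against 0.601% and 0.727%. The ABA and PEG shares lie near those of all genes. The untreated count fell to 6 when only the compared groups entered the fit and to 13 without untreated knockout replicate 2, and the PEG count was 3 with only the compared groups and 10 without PEG-treated wild type replicate 1.

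Of the 350 tested members, 5 were called in all 3 conditions, 4 of them higher and 1 lower, and they lay between numbers 531 and 586. Across the genome 0.333% of tested genes were called higher and 0.17% lower in all 3. BnaA04G0058500ZS had 5.10, 3.76 and 5.01 in untreated wild type and 19.5, 18.8 and 19.8 in the untreated knockout (log2 difference 1.87 with SE 0.21, adjusted p = 5.11e-05 in limma). With ABA it had 3.79, 3.42 and 1.54 and 26.1, 20.1 and 24.2 (log2 difference 2.69 with SE 0.21, adjusted p = 5.52e-07 in limma), and with PEG 10.8, 10.2 and 14.7 and 34.6, 31.1 and 26.0 (log2 difference 1.30 with SE 0.21, adjusted p = 0.00193 in limma). The genotypes did not overlap in any condition.

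Its neighbours on both sides were called higher too, except BnaA04G0058400ZS with PEG. BnaA04G0058400ZS had 2.96, 2.25 and 3.54 in untreated wild type and 14.4, 14.2 and 15.2 in the knockout (log2 difference 2.01 with SE 0.28, adjusted p = 5.97e-04 in limma), and 3.30, 4.41 and 1.03 against 24.2, 17.4 and 18.3 with ABA (log2 difference 2.52 with SE 0.28, adjusted p = 4.47e-05 in limma). With PEG it had 9.76, 8.16 and 13.6 against 28.6, 24.6 and 20.3, which did not overlap but missed the call (log2 difference 1.16 with SE 0.28, adjusted p = 0.0557 in limma). BnaA04G0058600ZS had 21.7, 17.7 and 23.1 against 49.9, 43.7 and 31.8 with PEG (log2 difference 0.95 with SE 0.18, adjusted p = 0.00746 in limma), a call lost without PEG-treated wild type replicate 2 and with only the compared groups in the fit. These 3 adjacent genes were close to 0 in both lines, where their highest values were 0.547, 0.823 and 0.508 TPM in the order of their numbers. Whether the authors' counting divided shared reads between these neighbours was not tested.

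The member called lower in all 3 conditions was BnaA04G0054300ZS. It had 49.7, 44.7 and 50.2 in ABA-treated wild type and 20.4, 18.4 and 24.2 in the ABA-treated knockout (log2 difference -1.17 with SE 0.15, adjusted p = 2.47e-04 in limma), and 67.9, 66.6 and 76.4 against 36.7, 37.8 and 26.3 with PEG (log2 difference -1.06 with SE 0.15, adjusted p = 6.27e-04 in limma), where the call was lost with only the compared groups in the fit. It was also lower in the lines, at 4.68 to 7.43 TPM untreated against 26.9, 37.3 and 30.0 TPM in their wild type. BnaA04G0108700ZS was lower with PEG, at 27.9, 27.1 and 30.8 in wild type and 19.4, 15.8 and 14.6 in the knockout (log2 difference -0.76 with SE 0.14, adjusted p = 0.00946 in limma), but this call was lost without PEG-treated knockout replicate 2 or 3, without wild type replicate 3 and with only the compared groups.

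Near the far end, between numbers 1087 and 1181, 9 of 42 tested members were lower and 2 higher in the untreated knockout, while 1 was lower and none higher with ABA, and likewise with PEG. The interval was drawn around called members after their values were seen. BnaA04G0109900ZS had 112, 209 and 226 in untreated wild type and 40.6, 21.0 and 62.7 in the knockout (log2 difference -2.18 with SE 0.39, adjusted p = 0.00567 in limma). BnaA04G0116900ZS had 94.6, 85.4 and 200.1 and 29.7, 32.3 and 39.0 (log2 difference -1.78 with SE 0.28, adjusted p = 0.00179 in limma). The groups did not overlap for either gene, and both calls were lost with only the compared groups in the fit. In PEG-treated leaves the order of BnaA04G0109900ZS was the other way round, with 58.0, 75.8 and 70.2 in wild type and 127, 119 and 202 in the knockout, a difference that was not called.

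**Figure D5:**
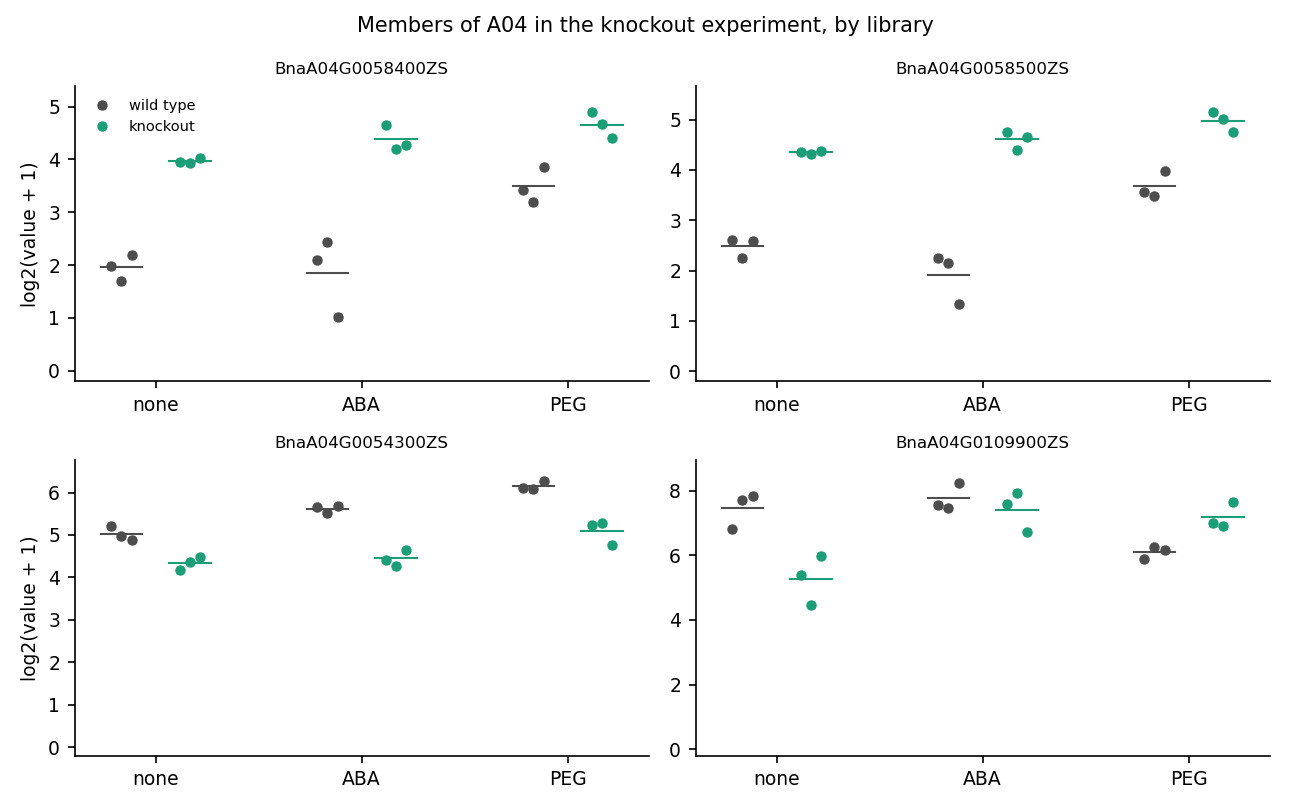
Log2(value + 1) of 4 members (panels) in each library of wild type and knockout of the knockout experiment, untreated (none), with ABA and with PEG. Points are libraries and short lines their means. The knockout lies above wild type in all 3 conditions for the upper panels, below it for BnaA04G0054300ZS, and below it only untreated for BnaA04G0109900ZS.

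Some treatment responses of the stretch were near those of the genome and others stood apart from them. In wild type of the overexpression experiment ABA lowered 92 and raised 60 of 397 members (23.2% and 15.1%, against 18.3% and 16.4% of all genes), in line 1 65 and 43 (16.4% and 10.8%, against 17.9% and 15.9%) and in line 2 56 and 48 (14.1% and 12.1%, against 16.2% and 14.1%). The wild type ABA group holds the 2 intermediate libraries, and without both of them, with the 1 library left assumed to vary like the other groups, 80 members were called in place of 152. The median ABA change of the lowered part was -0.26 in wild type, -0.07 in line 1 and -0.08 in line 2. PEG lowered 94 and raised 131 members in wild type (23.7% and 33.0%, against 22.4% and 39.8%). In line 1 it lowered 108 and raised 143 (27.2% and 36.0%, against 26.2% and 41.9%), and in line 2 105 and 129 (26.4% and 32.5%, against 26.3% and 38.7%). In each of these genotypes PEG raised a smaller share of the members than of all genes.

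In the knockout experiment ABA lowered 157 and raised 43 of 350 members in wild type (44.9% and 12.3%, against 36.6% and 12.7%) and 104 and 47 in the knockout (29.7% and 13.4%, against 27.8% and 15%). PEG lowered 102 and raised 104 in wild type (29.1% and 29.7%, against 26.2% and 33.5%) and 82 and 121 in the knockout (23.4% and 34.6%, against 21.8% and 35.3%). The balance of directions depended on scaling, since with quantile normalization the median change over all genes went from -0.23 to -0.01 for ABA in this wild type, from -0.12 to -0.0015 in the knockout, and from 0.20, 0.19 and 0.14 to 0.01 for PEG in wild type, line 1 and line 2. After it the member counts were 84 lower and 64 higher for ABA in wild type and 76 and 64 in the knockout, and PEG lowered more members than it raised, with 127 against 100 in the other wild type, 131 against 119 in line 1 and 126 against 110 in line 2.

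Members with the largest responses were shared in part by the experiments. BnaA04G0040900ZS rose with both treatments in both wild types. In the overexpression experiment it had 1.73, 1.90 and 2.21 TPM untreated, 36.8, 22.4 and 29.7 TPM with ABA (log2 difference 3.35 with SE 0.17, adjusted p = 8.45e-13 in limma) and 74.4, 84.7 and 77.8 TPM with PEG (log2 difference 4.76 with SE 0.17, adjusted p = 1.57e-15 in limma). In the knockout experiment it had 0.404, 1.02 and 0.652 untreated, 17.6, 13.8 and 17.7 with ABA (log2 difference 3.37 with SE 0.22, adjusted p = 2.45e-08 in limma) and 38.5, 40.5 and 34.1 with PEG (log2 difference 4.53 with SE 0.22, adjusted p = 1.11e-09 in limma). Although it lies in the lowered part, its treated lines had 30.0 to 42.8 TPM with ABA and 66.9 to 144 TPM with PEG, ranges that overlapped with those of wild type.

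BnaA04G0056400ZS, the member with the largest fall in the lines, was the other strong responder. In wild type of the overexpression experiment it went from 32.0, 33.0 and 34.3 TPM untreated to 356, 168 and 230.3 TPM with ABA and 283, 257 and 359.5 TPM with PEG, while line libraries had 1.30 to 3.76 TPM with ABA and 2.30 to 8.32 TPM with PEG. In the knockout experiment's wild type it went from 31.6, 47.2 and 19.5 to 207, 286 and 242 with ABA (log2 difference 2.94 with SE 0.32, adjusted p = 4.21e-06 in limma) and 388, 352 and 310.0 with PEG (log2 difference 3.46 with SE 0.32, adjusted p = 4.87e-07 in limma). The knockout had 22.2, 31.2 and 20.4 untreated, 255, 228 and 307 with ABA and 399, 336 and 154 with PEG, which overlapped with its wild type in each condition.

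Among other risers, BnaA04G0109900ZS went from 33.6, 40.7 and 24.7 TPM to 166, 359 and 221 TPM with ABA in wild type of the overexpression experiment (log2 difference 2.83 with SE 0.22, adjusted p = 9.23e-10 in limma). BnaA04G0117200ZS went from 1.07, 0.571 and 1.96 TPM to 20.2, 13.2 and 33.4 TPM with PEG (log2 difference 3.36 with SE 0.34, adjusted p = 2.47e-08 in limma). In the same wild type BnaA04G0048200ZS fell from a range of 14.7 to 18.8 TPM to 5.36, 3.07 and 5.22 TPM with ABA (log2 difference -1.73 with SE 0.33, adjusted p = 2.35e-04 in limma) and 1.45, 2.50 and 0.377 TPM with PEG (log2 difference -2.99 with SE 0.33, adjusted p = 7.33e-08 in limma). BnaA04G0059800ZS fell from 6.32, 6.57 and 7.21 TPM to 1.80, 1.83 and 2.22 TPM with ABA (log2 difference -1.39 with SE 0.17, adjusted p = 1.67e-06 in limma) and 0.427, 0.699 and 0.350 TPM with PEG (log2 difference -2.37 with SE 0.17, adjusted p = 1.95e-10 in limma). Treated and untreated libraries did not overlap for these genes.

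The falls in the knockout experiment's wild type were led by other members. With ABA BnaA04G0041000ZS went from 7.79, 3.92 and 19.7 to 0.442, 0.247 and 0.430 (log2 difference -2.82 with SE 0.43, adjusted p = 9.16e-05 in limma) and BnaA04G0045500ZS from 16.6, 9.38 and 14.7 to 1.54, 1.87 and 1.24 (log2 difference -2.48 with SE 0.24, adjusted p = 1.26e-06 in limma). With PEG BnaA04G0078300ZS went from 7.09, 5.05 and 7.18 to 0.248, 0.241 and 0.272 (log2 difference -2.56 with SE 0.17, adjusted p = 1.96e-08 in limma) and BnaA04G0072900ZS, at the boundary, from 26.6, 27.6 and 22.6 to 5.26, 3.32 and 2.88 (log2 difference -2.49 with SE 0.26, adjusted p = 1.66e-06 in limma). In the overexpression experiment BnaA04G0072900ZS also had less with PEG, 14.3, 21.7 and 12.1 TPM in wild type and 4.40 to 9.67 TPM in the lines.

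For some members the PEG response differed between the lines and wild type, at a larger share than over all genes. The difference of responses is built from the contrasts that chose the stretch and is given as a description. For PEG it was called for 16 members in line 1, 11 with a lower and 5 with a higher response, and for 19 in line 2, 16 lower and 3 higher. These were 4.03% and 4.79% of the tested members, against 1.13% and 1.54% of all genes. For ABA it was called for 1 member in line 1 and 0 in line 2, against 0.0211% and 0.0316%, with 81 and 72 of the 397 members at an unadjusted p under 0.05, against 126 and 144 of 2715 tested genes of C04, and without ABA-treated wild type replicate 1 both counts were 20. The 1 member was BnaA04G0056400ZS (difference of log2 changes -3.06 with SE 0.49), whose wild type values with ABA included the 2 intermediate libraries. For PEG its difference was -2.83 in line 1 and -2.38 in line 2 (SE 0.49). Some of the lower PEG responses rest on line values near 0, which leave little room for a response. BnaA04G0071400ZS was listed at 0 in the untreated and PEG-treated lines, so its difference, -1.70 in both, only mirrors the wild type response. BnaA04G0102200ZS had at most 0.312 TPM in these line libraries, and differences of -1.54 and -1.34. BnaA04G0079600ZS had a higher PEG response in line 1, with 16.1, 19.8 and 18.4 TPM untreated and 103, 106 and 100.2 TPM with PEG, where wild type had 3.61, 4.30 and 4.38 and 8.12, 9.24 and 8.21 TPM. After quantile normalization the PEG split was 11 lower and 8 higher in line 1 and 13 and 8 in line 2.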

How the data were processed

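Leaf RNA of rapeseed was sequenced in 45 libraries of 15 groups. The authors deposited the overexpression experiment per transcript with library sums of 1000000, which is TPM as read from the values, and these were summed here to genes (35 members had more than 1 transcript). For the knockout experiment the authors deposited another normalized score per gene, with library sums of 760713 to 842688. The tools kallisto 0.51.1, sleuth 0.30.1, DESeq2 1.38.3 and HISAT2 appear in the list per the submitters' processing notes, which assigns them no step, and the genome build is not given in the sources used here. Neither block holds counts, so depth is unknown and counting error cannot be given.

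Because the blocks were normalized separately, every fit was made within 1 experiment. Values were transformed as log2(value + 1), a scale that understates changes of low genes. Genes that reached 1 in 3 or more libraries (42926 and 47474) entered 1 model of all groups per experiment in limma 3.58.1 (R 4.3.3) with a mean trend and no replicate block, and p-values were adjusted by Benjamini-Hochberg over all genes tested. Both the model and the search for the boundary were tested on simulated data. The members are the A04 genes numbered 378 to 1199. The members, the lists and the rules were chosen with earlier results of these data known. Identifiers were named by rule, at most 2 a direction in each comparison, by the size of the change among members whose higher group averaged 5 or more (for the lines, in every condition) and whose libraries do not overlap (for the lines, in untreated leaves), plus the most abundant members and the nearest members to each edge. BnaA04G0071400ZS and BnaA04G0097300ZS were added after their values were seen. No sequences were used here.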

Additional observations from a re-analysis of the deposited data

Results flagged for a closer look

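The response to a treatment differed between a line and wild type, by the interaction term of the limma model, for 1 member of the stretch in line 1 with ABA, 16 members in line 1 with PEG and 19 members in line 2 with PEG. ABA-treated wild type replicates 2 and 3, which lay between replicate 1 and the lines, enter the ABA value. That value was 1 member without replicate 2, 3 without replicate 3 and 20 without replicate 1. The reason for these moves was not tested. No other value was singled out.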

How the results depend on the processing

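Of the 341 alternative counts of members called, 289 stayed within 1.5 times the main count. With a filter of at least 5, which leaves fewer genes to test, the counts were 111 (line 1 untreated), 135 and 127 (lines 1 and 2 with PEG), 101 (ABA in wild type of the overexpression experiment), 165 (PEG in line 1), 110, 132, 94 and 126 (ABA and PEG in the other wild type and in the knockout), and 1 and 10 for the response differences of line 2 with ABA and PEG. With only the compared groups in the fit they were 29 and 33 (lines 1 and 2 with ABA), 114 (line 1 with PEG), 6 and 3 (knockout untreated and with PEG), and 5 and 8 for the PEG response differences. With no filter there were 2 calls between the lines with PEG, and 3 and 1 ABA response differences. With a pseudocount of 0.1 the response differences numbered 0 for ABA in line 1, and 10 and 11 for PEG. Quantile normalization gave 2 for ABA in line 1. Without ABA-treated wild type 2 and 3 there were 80 ABA responses in wild type, and 2 and 2 ABA response differences. The median log2 changes of the parts moved in 37 of 48 alternatives. The cause of these moves was not tested.

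Leaving out 1 library at a time, calls between the lines with PEG ranged from 0 to 1, response differences from 0 to 20 in each line for ABA and from 8 to 36 and 12 to 23 for PEG, and knockout calls from 13 to 19 untreated and from 5 to 10 with PEG. The highest ABA values came without ABA-treated wild type replicate 1, and 36 without PEG-treated wild type replicate 3. Ratios of summed values over all members ranged from 1.35 to 1.46 and from 1.29 to 1.41 in the raised part (lines 1 and 2 untreated), from 1.21 to 1.62 in the raised part with PEG in line 1 (main value 1.45 ± 0.416, SD, n = 3), from 0.607 to 0.704 and 1.19 to 1.40 with ABA in line 1, from 0.610 to 0.708 and 1.17 to 1.377 with ABA in line 2, and from 1.35 to 1.56 in the raised part with PEG in line 2. Without the 5 most abundant members the lowered part had 0.650, 0.690 and 0.585 in line 1 (untreated, ABA, PEG) and 0.642, 0.691 and 0.607 in line 2, and the raised part had 1.35 in line 1 untreated, and 1.33 and 1.60 in line 2 with ABA and PEG. The boundary was 735 for line 2 with ABA alone.

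Deviations of same-numbered libraries had a median correlation of 0.037 in the knockout and -0.016 in the overexpression experiment (ranges -0.40 to 0.25 and -0.42 to 0.21). The labels do not say whether a shared number means shared plants or a shared harvest, and these correlations cannot tell. With the replicate number as a block the counts stayed within 1.5 times of the unblocked ones in every comparison, for example 18 members in the untreated knockout, 167 in untreated line 1 and 0 between the lines in each condition. For the named treatment responses and knockout differences, 0 of 328 log2 changes recomputed under these settings were reversed and 9 lost their call, while the named line against wild type changes and response differences were not recomputed one by one. Unknown depth limits the values of low members.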
